A study of Mus musculus with 35 samples.

Results

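Crct1, 4 keratin genes and 4 other intermediate filament genes were followed in podocytes of mice with a mutated LIM domain in the transcription factor Lmx1b. The 9 genes, of 33292 in the expression table, were Crct1, Krt7, Krt8, Krt18, Krt19, Vim, Nes, Des and Lmna. They were selected to ask whether the large rise of Crct1, a gene of the epidermis, goes along with a change in the type of filament. Crct1 was chosen by its rise in the knock-in mice that received solvent, so its values in comparisons with those mice are given as a description with no test. The filament genes were chosen as members of the family with earlier results of these data known.

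All 35 mice carried an rtTA transgene expressed in podocytes, the transgene tetO::Cre, an mTmG reporter and a floxed Lmx1b allele. Cre is thus restricted to podocytes, where the floxed allele loses the exons that encode the homeodomain. The other Lmx1b allele was wild type (labelled WT, that is Lmx1b+/lox), H77L in the first LIM domain (Lmx1b H77L/lox) or C118F in the second LIM domain (Lmx1b C118F/lox). Mice were 7 to 10 weeks old and were given doxycycline at 2 mg/ml in the drinking water until day 7. During this time they were injected every other day with the proteasome inhibitor bortezomib (Btz) at 0.3 µg per g body weight or with its solvent DMSO. There were 6 mice in each of the groups WT_DMSO, H77L_DMSO, C118F_DMSO, WT_Btz and H77L_Btz, and 5 in C118F_Btz. The WT mice are heterozygous for Lmx1b in podocytes after recombination, so no group had 2 intact alleles there.

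Green podocytes of each mouse were sorted by FACS, and their poly(A) RNA was sequenced as a library of its own. Values are TPM, that is reads per transcript length scaled to a sum of 1000000 in each mouse, so that levels of different genes can be compared on this scale. Reads recovered from the steps of the TPM values added up to between 5268831 and 24149598 per mouse. All 15 podocyte markers were detected in every group, with a summed level of 28928 to 45326 TPM in WT_DMSO and 7278 to 15464 TPM in the knock-in mice under DMSO. Lmx1b itself averaged 69.6 ± 14.7 TPM (SD, n = 6) in WT_DMSO and 120 ± 19.7 TPM (SD, n = 6) in H77L_DMSO, and a count per gene cannot tell the alleles apart. Mouse 47151 of C118F_DMSO stood apart with 2682 TPM summed over 10 mesangial and smooth muscle markers, against 75.7 to 581 TPM in the other knock-in mice under DMSO. Most of this sum was Ren1 (renin), at 2166 TPM in mouse 47151, beside a group median of 2.67 TPM.

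Intermediate filaments are ropes of coiled-coil proteins that give cells and nuclei mechanical strength. Simple epithelia build them from a type II keratin (Krt7, Krt8) paired with a type I keratin (Krt18, Krt19), whereas mesenchymal cells use vimentin (Vim) and muscle uses desmin (Des), both of type III. Mature podocytes are epithelial cells that rely on vimentin and nestin (Nes), a filament of neural progenitors, and desmin is a known marker of podocyte injury in rodents. Lamins A and C, encoded by Lmna, form the filament layer under the nuclear membrane. Crct1 (cysteine-rich C-terminal 1) is not a filament protein. Its gene lies in the epidermal differentiation complex, a cluster of genes for the cornified envelope of keratinocytes.

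The members lie on 5 chromosomes of the mouse build GRCm39. Crct1 has 2 exons and takes up chr3:92921508-92923001 on the minus strand, the same chromosome as Nes at chr3:87878385-87887758 (plus strand) and Lmna at chr3:88387454-88417299 (minus strand). Krt7 at chr15:101308924-101328194 and Krt18 at chr15:101936615-101940462 (both plus strand) and Krt8 at chr15:101905133-101912917 (minus strand) belong to the keratin cluster of chromosome 15, and Krt19 at chr11:100031636-100039491 (minus strand) to that of chromosome 11. Vim lies at chr2:13578738-13587639 and Des at chr1:75320511-75345223, both on the plus strand. In the table they are ENSMUSG00000027913 (Crct1), ENSMUSG00000023039 (Krt7), ENSMUSG00000049382 (Krt8), ENSMUSG00000023043 (Krt18), ENSMUSG00000020911 (Krt19), ENSMUSG00000026728 (Vim), ENSMUSG00000004891 (Nes), ENSMUSG00000026208 (Des) and ENSMUSG00000028063 (Lmna), and all 9 encode proteins.

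The sequences before the start of 2 genes are shown, since Des was the filament gene with the largest rise and Krt7 the one that fell. Each is the 250 bases before the start of the canonical transcript, read from GRCm39 on the strand of the gene, and lies at chr1:75336617-75336866 for Des (plus strand) and chr15:101310033-101310282 for Krt7 (plus strand). Neither holds a match to the motifs searched, so no letters are in capitals.
Des: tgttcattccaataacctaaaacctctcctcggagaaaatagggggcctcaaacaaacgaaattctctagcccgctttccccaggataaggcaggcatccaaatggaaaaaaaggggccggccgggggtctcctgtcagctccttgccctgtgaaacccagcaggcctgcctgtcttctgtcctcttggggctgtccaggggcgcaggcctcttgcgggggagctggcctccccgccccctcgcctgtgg
Krt7: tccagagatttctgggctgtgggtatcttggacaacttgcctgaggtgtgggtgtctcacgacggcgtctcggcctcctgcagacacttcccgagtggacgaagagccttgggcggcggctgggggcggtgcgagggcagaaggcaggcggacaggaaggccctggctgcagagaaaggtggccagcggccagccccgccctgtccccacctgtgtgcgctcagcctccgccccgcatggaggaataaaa
Searched on both strands, the letters TAATTA, the core recognised by many homeodomain proteins, were in none of the windows of the 8 filament genes. They were in 5.18% of the windows of all 21636 protein-coding genes in the table. The letters TGANTCA, the core of an AP-1 site, were in the window of Lmna and in 6.18% of all. The share of G and C was 59.6% for Des and 65.6% for Krt7, against a median of 53.2%.

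Crct1 was almost absent from WT podocytes and abundant in most knock-in mice that received solvent. In WT_DMSO it was listed at 0 in 4 of 6 mice and reached 1.24 TPM (4 reads) in the highest. In H77L_DMSO it ran from 39.8 over a median of 375 to 865 TPM, and in C118F_DMSO from 48.1 over 697 to 1093 TPM. All 12 knock-in mice under DMSO were thus above all WT mice. The means were 406 ± 369 TPM (SD, n = 6) and 600 ± 415 TPM (SD, n = 6), and the SD was nearly as large as the mean. The H77L_DMSO mice fell into 3 at 39.8, 87.0 and 102 TPM and 3 at 649, 693 and 865 TPM. The log2 fold change on the log2(TPM + 1) scale was 7.50 for H77L and 8.29 for C118F, against the same WT mice. It depended on the pseudocount, and with 0.1 in place of 1 it was 10.79 for C118F.

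Under bortezomib, in other mice of the same lines, Crct1 was again higher in both. Not a single read was recovered in the 6 WT_Btz mice. The 6 H77L_Btz mice ran from 2.60 over a median of 14.2 to 53.4 TPM, with 10 to 215 reads each. The 5 C118F_Btz mice had 22.5, 28.3, 84.5, 245 and 532 TPM. Every knock-in mouse was thus above every WT mouse, and Crct1 was called higher in H77L (log2 fold change 3.74 ± 0.49 (SE), adjusted p = 3.2e-05 with limma) and in C118F (6.57 ± 0.63 (SE), adjusted p = 3.1e-06 with limma). It passed the filter only through the knock-in groups, but was also called when every gene was tested with no filter. The lines are those in which the gene was chosen, so the call is not independent of that choice. Taking 3 reads over the whole WT_Btz group as the floor, the pooled level was at least 163-fold higher in H77L_Btz and at least 1569-fold higher in C118F_Btz, a bound that covers counting error only. The bound fell to 105-fold without mouse 48982 of H77L_Btz and to 552-fold without mouse 50096 of C118F_Btz, which held 2525 of the 3424 reads of its group.

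The level of Crct1 differed widely between treatments and within groups. In the H77L line the mean was 18.7 TPM under bortezomib and 406 TPM under DMSO, and only the highest mouse of the first group (53.4 TPM) passed the lowest of the second (39.8 TPM). In the C118F line the means were 182 and 600 TPM, with ranges that overlapped. Between the lines, C118F_Btz lay 2.83 ± 0.81 (SE) above H77L_Btz on the log2 scale, which missed the threshold (adjusted p = 0.120 with limma).

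**Figure D1:**
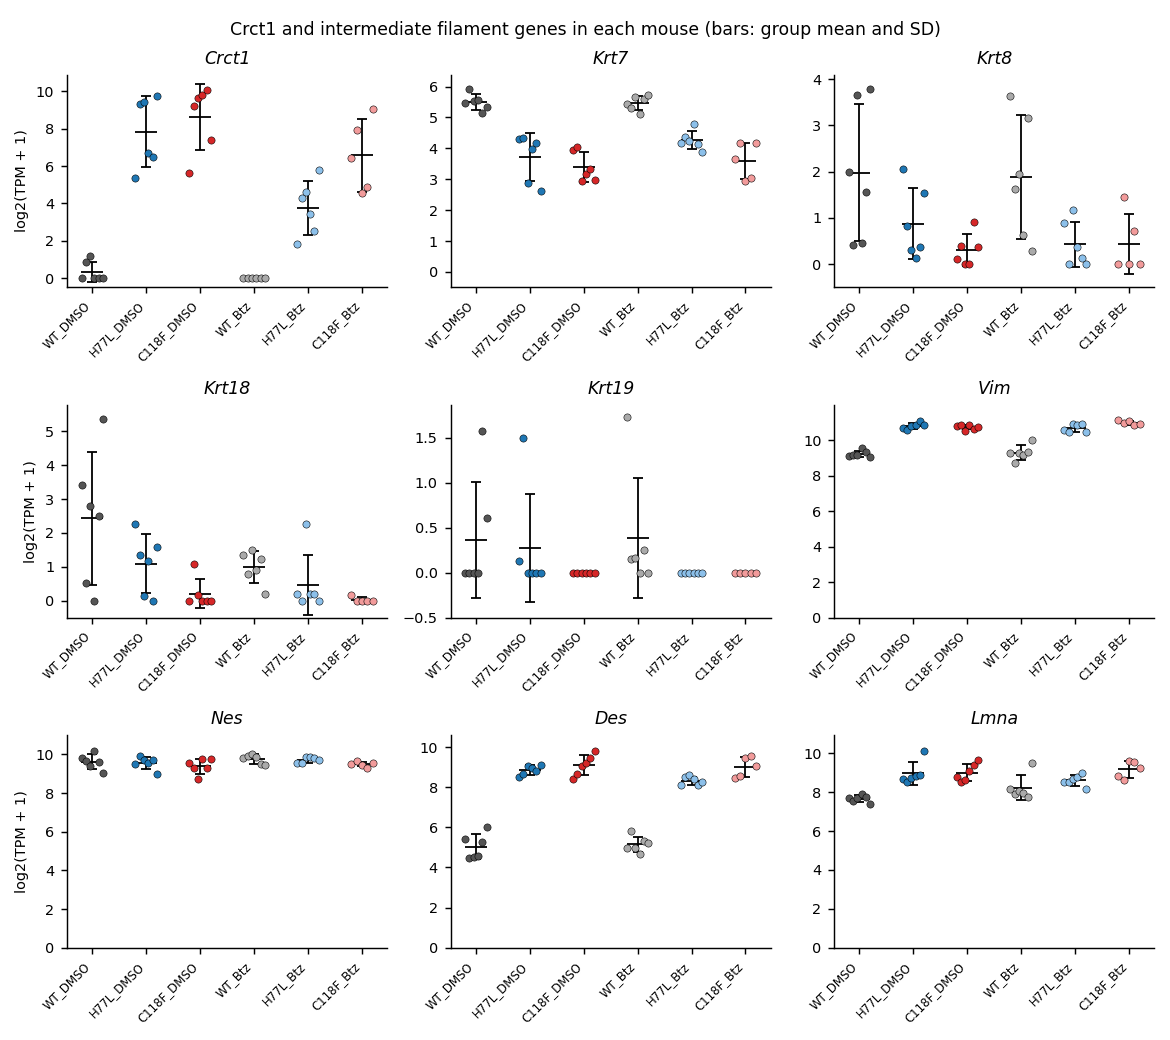
Level of the 9 genes in each mouse, as log2(TPM + 1), with 1 panel per gene and 1 point per mouse. Horizontal and vertical bars give the mean and SD of each group (6 mice, 5 in C118F_Btz). Knock-in mice lie above WT mice for Crct1, Vim and Des under both treatments and below them for Krt7, while Nes overlaps between all 6 groups.

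Among the type III filaments, desmin mRNA rose most. Des ran from 21.3 over a median of 29.9 to 64.1 TPM in WT_DMSO, from 360 over 478 to 550 TPM in H77L_DMSO and from 345 over 556 to 903 TPM in C118F_DMSO. Neither knock-in group overlapped with WT. The mean was 13.4-fold higher in H77L (log2 fold change 3.81 ± 0.23 (SE), adjusted p = 2.5e-08 with limma) and 16.6-fold higher in C118F (4.06 ± 0.28 (SE), adjusted p = 1.2e-07 with limma). Under bortezomib WT mice had 24.3 to 54.7 TPM, H77L mice 273 to 383 TPM, and C118F mice 347, 376, 540, 712 and 747 TPM. The groups again did not overlap, with log2 fold changes of 3.18 ± 0.15 (SE, adjusted p = 8.8e-10 with limma) for H77L and 3.87 ± 0.23 (SE, adjusted p = 4.1e-08 with limma) for C118F.

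Vimentin had a high level in WT podocytes and rose further, by 2.99-fold in H77L and 2.84-fold in C118F under DMSO. Under DMSO it ran from 533 over a median of 576 to 740 TPM in WT, from 1516 over 1807 to 2184 TPM in H77L and from 1487 over 1740 to 1878 TPM in C118F. Every knock-in mouse was far above the highest WT mouse. The log2 fold changes were 1.58 ± 0.11 (SE, adjusted p = 7.8e-08 with limma) and 1.51 ± 0.11 (SE, adjusted p = 2.1e-07 with limma). Under bortezomib the ranges were 411 to 1011 TPM in WT, 1384 to 1958 TPM in H77L and 1826 to 2208 TPM in C118F. Vim was 2.58-fold (log2 fold change 1.40 ± 0.17 (SE), adjusted p = 1.3e-05 with limma) and 3.13-fold higher (1.69 ± 0.17 (SE), adjusted p = 5.7e-06 with limma).

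Nestin mRNA was not called in any comparison. It ran from 522 over a median of 793 to 1171 TPM in WT_DMSO, from 506 over 791 to 980 TPM in H77L_DMSO and from 421 over 692 to 862 TPM in C118F_DMSO. Its log2 fold change against WT lay between -0.27 and -0.05 in the 4 comparisons between knock-in and WT mice, with an adjusted p of 0.117 to 0.827 (limma). The lowest of these, C118F under bortezomib, passed the threshold (adjusted p = 0.0424 with limma) once mouse 48986 of WT_Btz was left out.

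Lmna rose in both lines under DMSO. It had 167 to 235 TPM in WT, 370 to 1122 TPM in H77L (median 441) and 367 to 816 TPM in C118F (median 486), with no overlap between WT and either line. The mean was 2.67-fold higher in H77L (log2 fold change 1.30 ± 0.21 (SE), adjusted p = 2.3e-04 with limma) and 2.64-fold higher in C118F (1.35 ± 0.18 (SE), adjusted p = 5.3e-05 with limma). Under bortezomib the groups overlapped. WT mice had 214 to 283 TPM apart from mouse 48986 with 718 TPM, H77L mice 281 to 506 TPM and C118F mice 390 to 764 TPM. The difference was 0.39 ± 0.23 (SE, adjusted p = 0.267 with limma) for H77L and 0.95 ± 0.28 (SE, adjusted p = 0.0197 with limma) for C118F. Without mouse 48986 these became 0.64 (adjusted p = 0.00140 with limma) and 1.20 (adjusted p = 1.9e-04 with limma). The call in C118F was lost without mouse 50091 or mouse 50095 of C118F_Btz (highest adjusted p = 0.0553), and the difference was 0.16 (adjusted p = 0.666 with limma) with the mouse number as a covariate. Mouse 48986 was the only WT mouse numbered above 47221, and all C118F_Btz mice were, so number and genotype were partly confounded.

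Krt7 was the only one of the 4 keratin members to pass the filter, and it fell in both lines. It ran from 34.2 over a median of 44.3 to 59.4 TPM in WT_DMSO, from 5.09 over 15.8 to 19.4 TPM in H77L_DMSO and from 6.63 over 8.51 to 15.6 TPM in C118F_DMSO. All knock-in mice were below all WT mice. The mean was 3.30-fold lower in H77L (log2 fold change -1.78 ± 0.28 (SE), adjusted p = 1.8e-04 with limma) and 4.42-fold lower in C118F (-2.09 ± 0.21 (SE), adjusted p = 4.0e-06 with limma). Under bortezomib WT mice had 33.6 to 52.1 TPM, H77L mice 13.7 to 26.4 TPM and C118F mice 6.70, 7.26, 11.6, 16.9 and 17.1 TPM. The groups did not overlap here either, with log2 fold changes of -1.21 ± 0.15 (SE, adjusted p = 1.4e-05 with limma) and -1.88 ± 0.23 (SE, adjusted p = 2.8e-05 with limma).

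Krt8, Krt18 and Krt19, the other keratins of simple epithelia, were low and uneven, and none of them passed the filter of a TPM above 1 in every mouse of a group. Krt8 had 0.327 to 12.9 TPM in WT_DMSO (median 2.46), 0.102 to 3.18 TPM in H77L_DMSO and 0 to 0.876 TPM in C118F_DMSO. Krt18 had 0 to 40.1 TPM in WT_DMSO (median 5.29), 0 to 3.84 TPM in H77L_DMSO and 0 to 1.12 TPM in C118F_DMSO. Krt19 was listed at 0 in 4 of 6 WT_DMSO mice and in all mice of C118F_DMSO, H77L_Btz and C118F_Btz. Knock-in and WT mice overlapped for all 3 genes under DMSO. When every gene was tested without the filter, Krt18 was called lower in C118F under bortezomib (log2 fold change -0.96 ± 0.20 (SE), adjusted p = 0.00905 with limma), from 51 reads in all WT_Btz mice to 1 read in all C118F_Btz mice, and no other of these comparisons was called. Aligned reads that fit several places were kept at 1 of them at random, and the genome holds a processed pseudogene of Krt8, so low values of Krt8 are uncertain.

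In the WT groups and H77L_DMSO, the mice with most Krt8 also had high sums of tubule or leukocyte markers. The other groups were mixed. The highest mice of WT_DMSO, 47155 with 12.9 TPM and 46403 with 11.6 TPM, had 409 TPM summed over 10 leukocyte markers and 1225 TPM summed over 10 tubule markers, respectively. The highest mouse of WT_Btz (46587, 11.5 TPM) had 367 TPM of tubule markers, and the highest of H77L_DMSO (46621, 3.18 TPM) had 285 TPM. In C118F_DMSO the highest mouse (49335, 0.876 TPM) had 20.9 TPM of tubule markers, while mouse 46381 with 119 TPM of them had 0.307 TPM of Krt8. The highest mice of H77L_Btz (47991, 1.26 TPM) and C118F_Btz (47615, 1.74 TPM) had tubule sums of 21.2 and 13.6 TPM, which were not the highest of their groups. Their leukocyte sums, 39.1 and 23.8 TPM, were the highest of their groups. The summed tubule level ranged from 10.1 to 1225 TPM in WT_DMSO, from 6.23 to 285 TPM in H77L_DMSO and from 3.63 to 119 TPM in C118F_DMSO. Under bortezomib it ranged from 5.34 to 367 TPM in WT, from 6.59 to 79.6 TPM in H77L and from 12.6 to 23.9 TPM in C118F, and no tubule marker was at 0 throughout a group. Over the 13 collecting duct and urothelium markers the sum was 2.80 to 150 TPM in WT_DMSO, 0 to 50.7 TPM in H77L_DMSO and 0.483 to 44.9 TPM in C118F_DMSO, and 1.19 to 153, 0 to 14.9 and 0.894 to 6.64 TPM in WT_Btz, H77L_Btz and C118F_Btz, with Upk2 at 0 in every mouse. The sum over 8 markers of parietal epithelium went the other way, with 54.3 to 82.1 TPM in WT_DMSO, 128 to 276 TPM in H77L_DMSO and 95.2 to 198 TPM in C118F_DMSO. This sum rests on few genes, since 5 of the 8 had a median under 1 TPM in WT_DMSO and 4 in the knock-in groups under DMSO. Over 12 WT mice the Pearson r of log2 Krt8 with the log2 sum of both lists was 0.76, that of Krt18 was 0.37 and that of Krt7 was -0.03, as a description of values that share a library. The part of such cells in the keratin levels was not tested. In sorted bulk RNA, fewer cells of a type and less RNA per cell cannot be told apart.

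**Figure D2:**
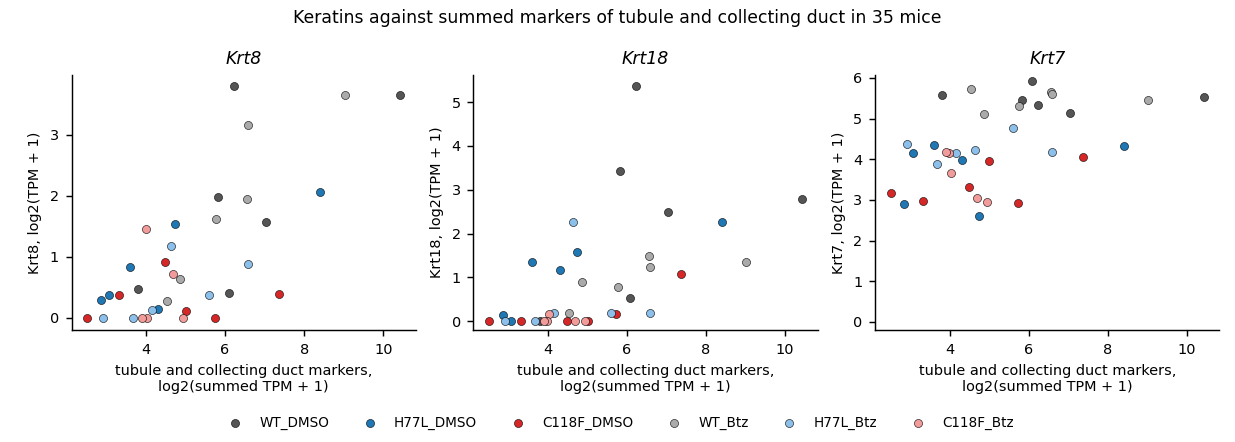
Krt8, Krt18 and Krt7 against the summed level of 10 tubule and 13 collecting duct and urothelium markers, both as log2(TPM + 1), with 1 point per mouse and colours for the 6 groups. The highest values of Krt8 are in WT mice, most of them with a high marker sum, while Krt7 is at 33.6 to 59.4 TPM in WT mice across the whole range of the sum.

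For desmin, markers of mesangium and smooth muscle were read beside it, since these cells carry desmin too. The sum over the 10 markers was 16.4 to 106 TPM in WT_DMSO, 164 to 581 TPM in H77L_DMSO and 75.7 to 2682 TPM in C118F_DMSO. Under bortezomib it was 11.9 to 50.2 TPM in WT, 127 to 258 TPM in H77L and 83.6 to 284 TPM in C118F. Pdgfrb, the receptor for platelet-derived growth factor B, averaged 14.4 TPM in WT_DMSO and 247 TPM in H77L_DMSO, while the mesangial integrin Itga8 averaged 0.111 and 0.234 TPM. Of the 10 markers, 5 or 6 had a median under 1 TPM in every group, and Pdgfra was at 0 in every C118F_DMSO mouse. Without mouse 47151, the log2 fold change of Des in C118F under DMSO was 4.08 (adjusted p = 4.1e-07 with limma). Most of the marker sum of mouse 47151 was Ren1, so this fit does not address mesangial cells. The part of mesangial cells in the level of Des was not tested.

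Counted together, under DMSO 3 of the 5 members tested (Vim, Des and Lmna) were called higher and 1 (Krt7) lower in each line, at an adjusted p below 0.05. Among all genes tested, 22.4% were called higher and 22.4% lower in H77L, and 13.7% higher and 16.6% lower in C118F. Under bortezomib, leaving Crct1 aside, 2 of the 5 filament genes tested (Vim and Des) were higher and 1 (Krt7) lower in H77L, against a background of 12.5% higher and 11.0% lower. In C118F 3 of 5 were higher and 1 lower, against 15.1% and 12.4%. At the cutoffs of the study (adjusted p below 0.001 and an absolute log2 fold change above 2), Des passed in all 4 comparisons, Krt7 in C118F under DMSO, and Crct1 in both under bortezomib. The share of all genes past these cutoffs was 2.17% for H77L and 2.27% for C118F under DMSO, and 1.20% and 1.93% under bortezomib.

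**Figure D3:**
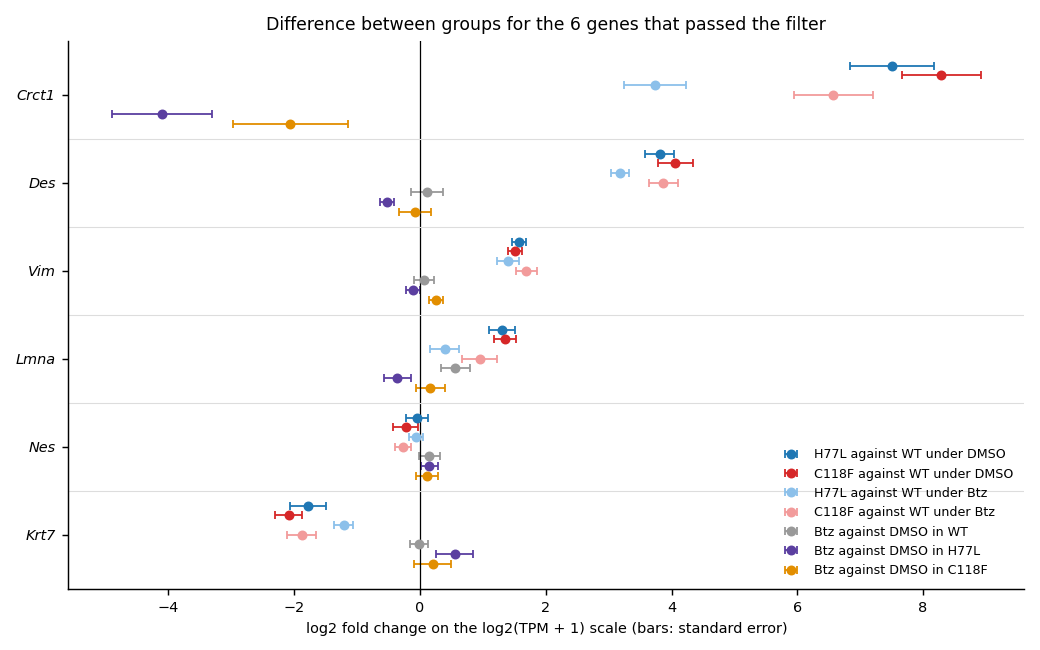
Log2 fold change on the log2(TPM + 1) scale for the 6 genes that passed the filter, with the standard error from limma as bars and a colour for each of 7 comparisons. Crct1, Des and Vim lie right of 0 and Krt7 left of 0 in each comparison between knock-in and WT mice. Crct1 lies left of 0 for bortezomib against DMSO in both lines, where it was not tested.

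The comparison of bortezomib with DMSO within a genotype gave few calls among the members. In H77L mice Des was 1.44-fold lower (log2 fold change -0.52 ± 0.11 (SE), adjusted p = 0.0437 with limma), and 273 to 383 TPM overlapped with 360 to 550 TPM. This was 1 of 5 members tested, against 0.740% of all genes called lower, and the call was lost in 9 of 12 fits that left out 1 mouse. In WT mice 0 of 5 members and 0% of all genes were called by limma, by voom on recovered reads as well, with 923 of 10659 genes at an unadjusted p below 0.05. In C118F mice 0 of 5 members and 0% of all genes were called by either tool, with 634 of 10814 genes at an unadjusted p below 0.05. Their smallest adjusted p was 0.560 for Lmna in WT mice and 0.813 for Vim in C118F mice.

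The lines were also set against each other. Under DMSO 0 of the 5 filament genes tested and 0% of all genes were called between C118F and H77L by limma or voom, with 416 of 10809 genes at an unadjusted p below 0.05. Under bortezomib 0 of 6 members were called, where 0.972% of all genes were. All 6 had an unadjusted p below 0.05 there, as did 1558 of all 10803 genes tested (14.4%). The adjusted p of the 6 members ranged from 0.101 for Des (0.69 ± 0.19 (SE) on the log2 scale, limma) to 0.302 for Nes. The difference of Des was called (adjusted p = 0.0237 with limma) without mouse 47614 of C118F_Btz. In the test of the difference between the bortezomib responses of the 2 lines, 0 of the 5 filament genes tested and 0% of all genes were called by limma or voom, with 840 of 11046 genes at an unadjusted p below 0.05.

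The cytoplasmic filament mRNA of WT podocytes was mostly nestin and vimentin, and that of knock-in podocytes mostly vimentin, with more desmin. Summed over Krt7, Krt8, Krt18, Krt19, Vim, Nes and Des, the level was 1509 ± 263 TPM (SD, n = 6) in WT_DMSO, 3054 ± 258 TPM (SD, n = 6) in H77L_DMSO and 2990 ± 359 TPM (SD, n = 6) in C118F_DMSO. Of this sum, Nes held 53.0 ± 6.02% (SD) in WT_DMSO, 25.3 ± 5.21% in H77L_DMSO and 22.8 ± 3.37% in C118F_DMSO. The TPM of Nes itself was not called, as given above. The share of Vim was 40.3 ± 3.67% in WT_DMSO, 58.9 ± 4.15% in H77L_DMSO and 57.6 ± 5.55% in C118F_DMSO. Des held 2.44 ± 1.52%, 15.2 ± 2.41% and 19.2 ± 5.72%. The 4 keratins held 4.22 ± 1.89% in WT_DMSO and 0.547 ± 0.281% and 0.359 ± 0.152% in the knock-in groups. Other filament genes were not in the sum. Krt10 averaged 24.3, 15.2 and 16.8 TPM in WT_DMSO, H77L_DMSO and C118F_DMSO, and Sync 47.8, 123 and 109 TPM.

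Under bortezomib the shares were close to those under DMSO in each genotype. The sums were 1618 ± 135, 2858 ± 344 and 3315 ± 159 TPM (SD) in WT_Btz, H77L_Btz and C118F_Btz. Nes held 54.9 ± 9.60%, 29.6 ± 1.41% and 21.9 ± 2.23%, and Des held 2.24 ± 0.801%, 11.4 ± 1.87% and 16.4 ± 5.35%. The keratins held 3.08 ± 0.601%, 0.688 ± 0.129% and 0.379 ± 0.172%. These shares are scores over chosen genes and were not tested.

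**Figure D4:**
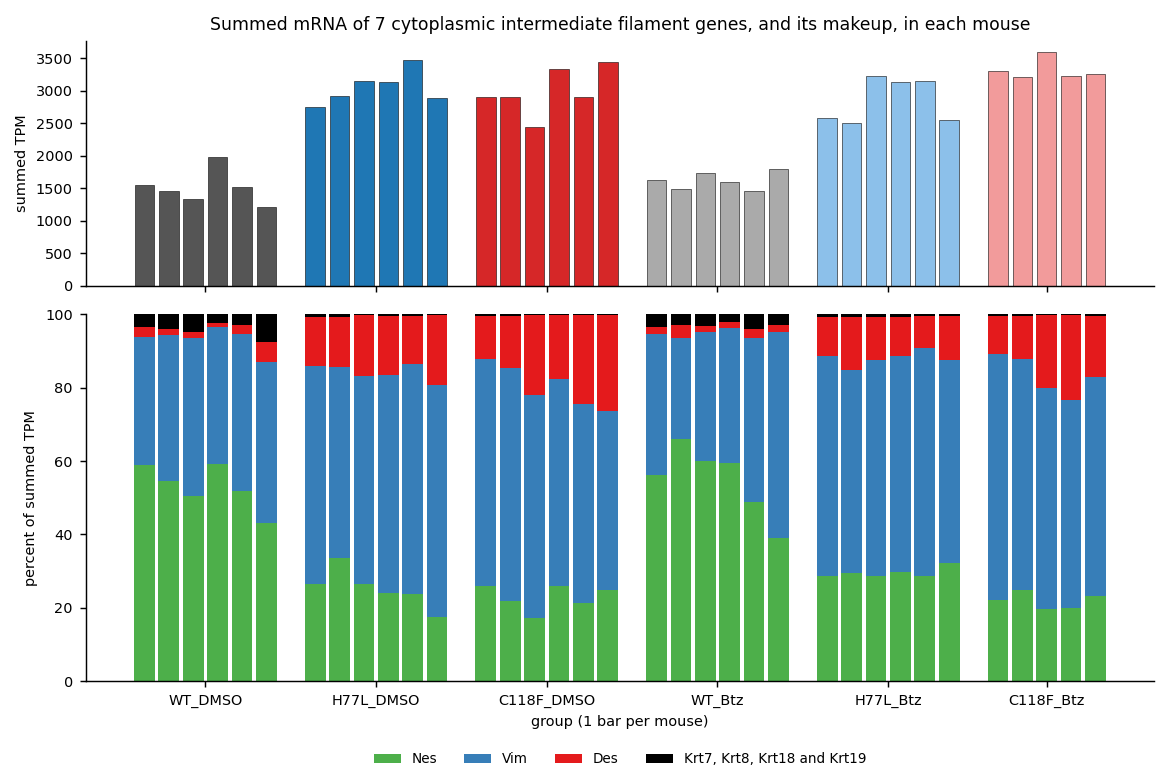
Top, TPM summed over 7 cytoplasmic intermediate filament genes in each mouse. Bottom, percent of this sum held by Nes, Vim, Des and the 4 keratins, with 1 bar per mouse in 6 groups. The sum is 1212 to 1980 TPM in WT_DMSO and 2444 to 3482 TPM in the knock-in mice under DMSO, and the share of Des reaches 26.2% in a C118F_DMSO mouse.

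Within knock-in groups, the level of Crct1 in a mouse had little relation to that of the filament genes. Over the deviations of 23 knock-in mice from their group mean, the Pearson r with Crct1 on the log2(TPM + 1) scale was 0.10 for Des, -0.26 for Vim, -0.07 for Lmna, -0.10 for Nes and -0.14 for Krt7. These r share library and depth, are given as a description, and have no p. Over all 35 mice, where the gap between WT and knock-in mice enters, r was 0.86 for Des, 0.79 for Vim and -0.84 for Krt7.

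Among 11306 genes, the 10 most like Crct1 by these deviations had an r of 0.854 to 0.930. They were S100a6 (a calcium-binding protein), Cav2 (caveolin-2), Csf1 (the macrophage growth factor), St8sia2, Plaur (the urokinase receptor), Prss23, Tnc (tenascin C), Mfge8, Ankrd1 and Bgn (biglycan). S100a6 was the closest with an r of 0.930, and averaged 33.9 TPM in WT_DMSO, 528 TPM in H77L_DMSO, 801 TPM in C118F_DMSO, 36.1 TPM in WT_Btz, 119 TPM in H77L_Btz and 326 TPM in C118F_Btz. Its order of groups was that of Crct1 apart from the WT groups. Over all 35 mice the 10 most alike were Mfge8 (r = 0.970), Tlr2, Syt12, S100a6, Csf1, Gucy2g, Slc6a6, Rhbdl2, Serping1 and Abcg1 (r = 0.940). S100a6, Csf1 and Mfge8, 3 genes, were among the 10 by both measures.

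**Figure D5:**
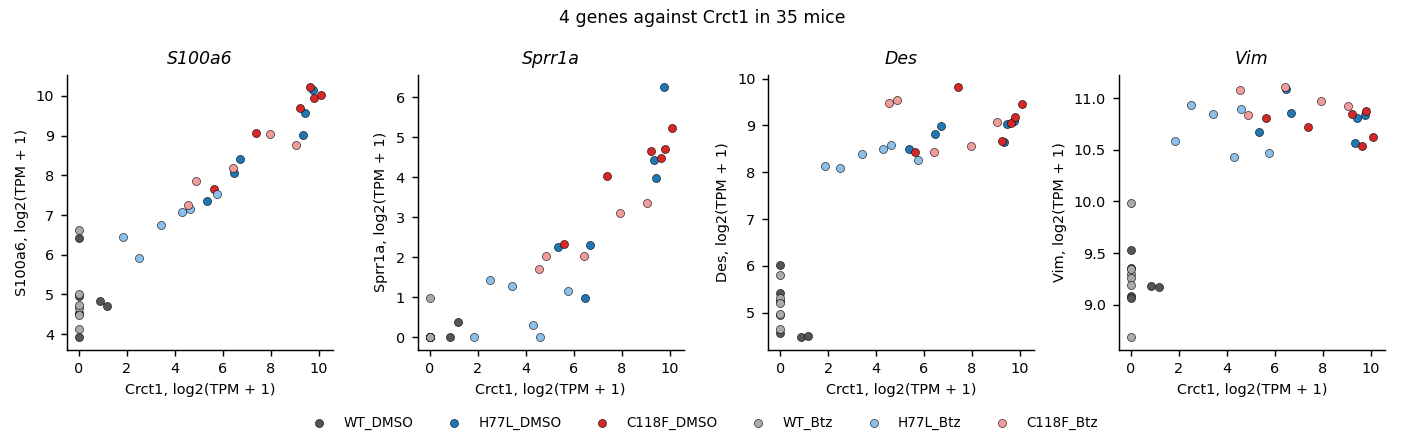
S100a6, Sprr1a, Des and Vim against Crct1 in 35 mice, all as log2(TPM + 1), with colours for the 6 groups. S100a6 climbs with Crct1 across the knock-in mice, whereas Vim lies between about 10.4 and 11.1 in all of them, whatever the level of Crct1.

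Most of the epidermal genes around Crct1 were silent in these podocytes. The list used here for the epidermal differentiation complex held no S100 genes. S100a10 and S100a11, which lie within 1 Mb of Crct1, are given below. Of the 52 listed genes in the table, 41 were at 0 in every mouse. The other 11 were above 0 in at least 1 mouse, as were 23943 of all 33292 genes. In at least 1 comparison with WT, 3 of the 52 passed the filter. Those 3, named here because they were so few, were Sprr1a (a small proline-rich envelope protein), Loricrin and Tchh (trichohyalin). Sprr1a averaged 0.0507 TPM in WT_DMSO and 21.2 TPM in C118F_DMSO. The log2 fold change in C118F was 4.18 ± 0.37 (SE, adjusted p = 1.3e-06 with limma) under DMSO and 2.29 ± 0.32 (SE, adjusted p = 9.1e-05 with limma) under bortezomib. Sprr1a passed the filter only through C118F, where it was high, so only a rise could be called there. It was also called in both comparisons when every gene was tested with no filter. In H77L_DMSO it ran from 0.971 to 75.8 TPM and failed the filter, and under bortezomib it averaged 0.164 TPM in WT, 0.765 TPM in H77L and 5.08 TPM in C118F. Loricrin, the main protein of the envelope, averaged 16.5 to 19.8 TPM in the 6 groups and was not called. Ivl (involucrin) and Flg (filaggrin) did not exceed 0.103 TPM in any mouse.

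Of the 72 genes that start within 1 Mb of Crct1, 17 were above 0 in at least 1 mouse, and 5 or 6 were tested in each comparison with WT. S100a10, which encodes a partner of annexin A2, was called higher in all 4, with log2 fold changes of 0.34 to 0.99 (highest adjusted p = 0.00669 with limma). S100a11 was called higher in C118F under DMSO (0.50 ± 0.17 (SE), adjusted p = 0.0370 with limma), a call lost in 8 of 12 fits that left out 1 mouse. Sprr1a was called as given above, and no neighbour was called lower. In H77L 1 of 5 was called higher under each treatment, and in C118F 3 of 6 under DMSO and 2 of 6 under bortezomib. Over all genes 22.4% were called higher and 22.4% lower in H77L under DMSO, and 12.5% and 11.0% under bortezomib. In C118F these shares were 13.7% and 16.6% under DMSO, and 15.1% and 12.4% under bortezomib.

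Of the 30 genes of a keratinocyte list, 5 to 7 were tested in each comparison with WT. Under DMSO 3 were called higher and 1 lower in H77L, and 4 higher and 1 lower in C118F. Under bortezomib 2 were higher and 1 lower in H77L, and 3 higher and 0 lower in C118F. The shares over all genes were 22.4% higher and 22.4% lower, 13.7% and 16.6%, 12.5% and 11.0%, and 15.1% and 12.4%, in the same order. Cdsn and Sbsn passed the filter only through knock-in groups, so they could be called only as higher, and these counts are a description. Both were also called with no filter. Cdsn (corneodesmosin, an adhesion protein of cornified cells) rose in every comparison with WT, from 2.60 TPM in WT_DMSO to 20.6 TPM in H77L_DMSO (log2 fold change 2.60 ± 0.26 (SE), adjusted p = 2.7e-06 with limma) and 25.5 TPM in C118F_DMSO. Perp, a desmosome protein induced by p53, rose likewise from 8.78 to 34.3 and 50.3 TPM. Klf4, a transcription factor of epidermal barrier genes that podocytes also express, rose in both lines under DMSO (15.5 to 86.9 and 105 TPM). Under bortezomib it ran from 16.9 to 213 TPM in WT (median 29.3) and was not called in either line, but it was called higher in both without mouse 48986 of WT_Btz (adjusted p = 1.4e-04 in H77L and 0.00446 in C118F with limma). Sbsn (suprabasin) averaged 0.188 TPM in WT_DMSO and 6.17 TPM in C118F_DMSO, and 0.246 TPM in WT_Btz and 4.28 TPM in C118F_Btz. Krt10, a keratin of suprabasal epidermis, fell in H77L under both treatments and in C118F under DMSO, from 24.3 to 15.2 and 16.8 TPM under DMSO. Between 10 and 16 genes of the list were at 0 in all mice of a group. Krt5, the keratin of basal keratinocytes, was at 0 in every knock-in mouse, and Krt14, its partner, averaged at most 0.155 TPM in a knock-in group. The summed level of the list was 41.9 to 99.1 TPM in WT_DMSO, 104 to 357 TPM in H77L_DMSO and 108 to 354 TPM in C118F_DMSO.

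Of all 54 keratins in the table, 14 were at 0 in every mouse. The other 40 were above 0 in at least 1 mouse, as were 23943 of all 33292 genes, and 19 keratins were above 1 TPM in at least 1 mouse. Only 3 or 4 were tested in each comparison with WT. Under DMSO 1 was called higher and 2 lower in H77L, and 0 and 2 in C118F. Under bortezomib 1 was higher and 2 lower in H77L, and 1 and 1 in C118F. Over all genes the shares were 22.4% higher and 22.4% lower, 13.7% and 16.6%, 12.5% and 11.0%, and 15.1% and 12.4%, in the same order. Besides Krt7 and Krt10, only Krt222, a keratin-like gene of the type I cluster, was called. It averaged 0.725 TPM in WT_Btz, 2.63 TPM in H77L_Btz and 2.98 TPM in C118F_Btz, and passed the filter only through the knock-in groups. The calls under bortezomib held with no filter. The call in H77L under DMSO (0.91 ± 0.31 (SE), adjusted p = 0.0272 with limma) was lost with no filter, with voom, and in 5 of 12 fits that left out 1 mouse.

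The list of other intermediate filaments held 14 genes, of which 4 to 6 were tested against WT. In H77L 3 were called higher under DMSO and 2 under bortezomib, in C118F 2 and 3, and none was called lower. Over all genes the shares called higher were 22.4% and 12.5% in H77L and 13.7% and 15.1% in C118F. Sync (syncoilin, a filament protein that binds to desmin and the dystrophin complex) rose in every comparison with WT, from 47.8 TPM in WT_DMSO to 123 TPM in H77L_DMSO (1.36 ± 0.13 (SE), adjusted p = 1.8e-06 with limma) and 109 TPM in C118F_DMSO. Synm (synemin, which joins desmin and vimentin filaments) rose in both lines under DMSO, from 1.14 to 4.74 and 4.63 TPM, and in C118F under bortezomib. Synm passed the filter only through knock-in groups, and its calls against WT held with no filter. Iffo1 was called in H77L under DMSO and Iffo2 in both lines under bortezomib, with log2 fold changes of 0.44 to 0.58. These calls were lost in 11 of 12 (Iffo1), 9 of 12 (Iffo2, H77L) and 2 of 11 (Iffo2, C118F) fits that left out 1 mouse. The median log2 fold change of the tested genes of this list was 0.38 to 0.58, beside -0.06 to 0.00 over all genes.

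Of 17 genes that link or protect filaments, 12 were tested. Under DMSO 6 were called higher and 1 lower in H77L and 4 higher and 1 lower in C118F, and under bortezomib 4 higher and 1 lower in H77L and 6 higher and 2 lower in C118F. Over all genes 22.4% were called higher and 22.4% lower, 13.7% and 16.6%, 12.5% and 11.0%, and 15.1% and 12.4%, in the same order. The small heat shock protein Hspb1, a chaperone of filaments, rose in all 4 comparisons, most in H77L under bortezomib with 404 TPM in WT and 1568 TPM in H77L (1.91 ± 0.22 (SE), adjusted p = 9.7e-06 with limma). Its co-chaperone Bag3 rose in the same comparisons, from 23.7 to 73.5 TPM in H77L under bortezomib. Jup (plakoglobin, of desmosomes and adherens junctions) rose in all 4 as well, from 158 to 336 TPM in H77L under DMSO. Its call in C118F under DMSO (adjusted p = 0.0286 with limma) was lost in 6 of 12 fits that left out 1 mouse. Plec (plectin, which joins filaments to actin and to hemidesmosomes) rose in both lines under DMSO and in C118F under bortezomib. Macf1 and Dst, giant linkers of the plectin family, were called in 3 and 2 of the 4 comparisons with WT. Pkp4, an armadillo protein of cell junctions, fell in all 4, from 25.2 to 13.4 and 11.8 TPM under DMSO. Medians of the list were 0.22 to 0.55.

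All 14 genes of the nuclear lamina and of the complex that ties it to the cytoskeleton were tested. Under DMSO 7 were called higher in H77L and 2 in C118F, and under bortezomib 3 in each line. None was called lower. Of 14 genes these counts stand against 22.4%, 13.7%, 12.5% and 15.1% of all genes called higher. That for C118F under DMSO is close to its share, and those under bortezomib are only slightly above theirs. Sun2, of the inner nuclear membrane, rose in all 4 comparisons, from 9.77 TPM in WT_DMSO to 23.6 TPM in H77L_DMSO (1.21 ± 0.15 (SE), adjusted p = 2.5e-05 with limma) and 30.5 TPM in C118F_DMSO. Syne2 (nesprin-2), its partner in the outer membrane, rose in all 4 too, from 1.78 to 5.08 and 6.05 TPM under DMSO. It passed the filter only through knock-in groups, and its call in H77L under bortezomib was lost with no filter. Syne1 (nesprin-1) was called in all but C118F under DMSO (0.77 ± 0.32 (SE), adjusted p = 0.0817 with limma). Lbr, Sun1 and Tmpo, which bind lamins or link them to the cytoskeleton, were called in H77L under DMSO with log2 fold changes of 0.41 to 0.53, and that of Sun1 was lost in 9 of 12 fits that left out 1 mouse. Medians of the list were 0.15 to 0.26. The comparisons of both lines under a treatment share the WT mice, so calls in both lines are not independent of each other.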

How the data were processed

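Podocytes of 35 mice were sorted, and 1 library per mouse was made from poly(A) RNA with a SMART-Seq kit and sequenced from 1 end. Reads were trimmed with Trim Galore 0.6.7, aligned to GRCm39 with STAR and counted with featureCounts 1.6.3, per the labels and the methods of the study. The deposited values are TPM, and the step from counts to TPM is not given in the sources used here. No column was left unused.

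Values were transformed to log2(TPM + 1) and fitted with limma 3.58.1 in R 4.3.3, with a trend for mean level. Each fit held only the groups it compared, and a gene entered if all mice of a group exceeded 1 TPM. Benjamini-Hochberg adjustment ran over all genes tested, and genes were called at an adjusted p below 0.05. There were 10 comparisons. The fit was tested on simulated data. Since TPM are not counts, limma replaced the count test of the study. Groups were taken from genotype and treatment in the labels.

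Members and gene lists were chosen with earlier results of these data known. Named were all members, list genes called against WT (at most 6 per list and comparison, by fold change), called neighbours within 1 Mb, keratins called against WT, the 10 genes most like Crct1 by 2 measures and Lmx1b. Alternatives were a pseudocount of 0.1, no filter, median-of-ratios scaling, all mice in 1 fit, the mouse number as a covariate and leaving out each mouse. Whole reads (tolerance 0.01) were recovered from the steps of the TPM values, covering 99.963% or more of a mouse's TPM, and limma voom on these reads was added after seeing the data. Gene positions are from GENCODE vM39. Since reads copied by PCR are not separate molecules, counting bounds cover counting error only and errors are the spread between mice.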

Additional observations from a re-analysis of the deposited data

Results flagged for a closer look

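In each group with a level above 0, the highest and lowest mouse of each member was compared with the others on the log2(TPM + 1) scale (Dixon's test at 95%). For normally distributed values chance flags about 1 in 20 groups, and 7 of the 50 groups had a mouse far from the rest. That rate does not hold for groups with few or no reads in most mice, as in the flags of Krt18 and Krt19. The count of flags is thus no measure of an excess. Lmna had 1122 TPM in mouse 48975 of H77L_DMSO (370 to 466 TPM in the others) and 718 TPM in mouse 48986 of WT_Btz (214 to 283 TPM). These mice also had the highest sum over the keratinocyte list in their groups, at 357 and 260 TPM. Klf4, which podocytes also express, held 228 and 213 TPM of these sums. Krt18 had 1.12 TPM in mouse 46381 of C118F_DMSO, where the others reached 0.121 TPM. It had 3.81 TPM in mouse 47991 of H77L_Btz (others up to 0.144 TPM) and 0.115 TPM, from 1 read, in mouse 47614 of C118F_Btz (others at 0). Krt19 had 1.83 TPM in mouse 46732 of H77L_DMSO (others up to 0.0960 TPM) and 2.31 TPM in mouse 46587 of WT_Btz (others up to 0.190 TPM). Mouse 46587 also had the highest tubule marker sum of its group, at 367 TPM. No cause of these values was tested.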

How the results depend on the processing

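No paired analysis was possible because the groups share no replicate numbers. The calls of Vim, Des and Krt7 against WT under both treatments, and of Crct1 under bortezomib, kept direction and threshold in all alternatives and in all fits that left out 1 mouse. For members outside those fits, 342 values kept direction and side of the threshold, 5 lost the call, 3 turned and 4 moved.

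The 1 member called for bortezomib against DMSO in H77L (Des) became 0 with no filter, with all 35 mice in 1 fit and with voom (adjusted p = 0.112, 0.330 and 0.0563, limma), and 0 to 1 when 1 mouse was left out. For C118F against H77L under bortezomib this range was 0 to 1 as well. Lmna in C118F against WT under bortezomib had an adjusted p of 0.0668 with no filter (limma). Crct1 under DMSO was 9.87 for H77L and 10.63 for C118F with voom. With Lmna added to the sum, Vim held 35.5%, 50.1%, 49.1%, 51.2% and 52.2% in WT_DMSO, H77L_DMSO, C118F_DMSO, H77L_Btz and C118F_Btz, which follows from the larger sum.

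Uncalled values that turned with the mouse number as a covariate were Nes in H77L against WT under DMSO (0.19), and, for bortezomib against DMSO, Vim in WT (-0.13) and Lmna in C118F (-0.20). Uncalled values that turned when 1 mouse was left out were Nes in H77L against WT under DMSO (-0.17 to 0.06), Lmna in C118F against H77L under DMSO (-0.09 to 0.28) and Nes in the difference of responses (-0.07 to 0.18). For bortezomib against DMSO these were Krt7 (-0.09 to 0.07), Vim (-0.07 to 0.19) and Des (-0.02 to 0.31) in WT, and Nes (-0.03 to 0.18) and Des (-0.22 to 0.06) in C118F.

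Over all genes, calls for H77L against WT under DMSO numbered 4907, and 2873 once mouse number was a covariate. For bortezomib against DMSO in H77L they numbered 125, against 0 with no filter, 58 with all mice in 1 fit, 73 with voom and 0 to 270 without 1 mouse. For C118F against H77L under bortezomib they numbered 105, against 13, 30, 24 (covariate) and 35 to 279 without 1 mouse. For bortezomib in C118F, 31 were called with all mice in 1 fit. The cause of these shifts was not tested. Mouse number was partly confounded with genotype, since all WT mice but 48986 had numbers up to 47221 and knock-in mice ran to 50096. Fits with this covariate or without mouse 48986 thus cannot fully tell number and genotype apart. The lowest depth, 5268831 reads in mouse 47615 of C118F_Btz, made 1 read of Crct1 worth 0.862 TPM, and Krt8, Krt18 and Krt19 rested on few reads.

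Among the other genes named, some calls against WT depended on the setting. With mouse number in the fit, calls were lost for Bag3, Dst, Hspb1, Iffo1, Klf4, Krt222, Lbr, S100a10, Sun1 and Tmpo in H77L and Bag3, Jup, S100a11 and Synm in C118F under DMSO, and for Iffo2 and Syne2 in H77L and Dst, Iffo2 and Macf1 in C118F under bortezomib. With no filter, calls were lost for Iffo1, Krt222, Sun1 (H77L) and Jup and S100a11 (C118F) under DMSO, and Iffo2, Perp, Syne2 (H77L) and Dst (C118F) under bortezomib.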
